A study of Mus musculus with 5 samples.

Results

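The respiratory chain genes were taken by symbol: every gene whose name starts with Nduf, Uqcr, Atp5, mt- or Cox4 to Cox8, together with Sdha, Sdhb, Sdhc and Sdhd, that had unique molecular identifiers (UMIs, the counted molecules) on both sequencing platforms. This gave 104 genes of 20205 with UMIs on both platforms, of which 13 are encoded by the mitochondrial genome and 91 by nuclear chromosomes. The cells came from mammary tumours of PyMT mice, which carry the polyomavirus middle T antigen as a transgene and develop mammary carcinomas. Digested tumours were run as 5 single-cell libraries. Fresh 10x 1 and fresh 10x 2 are 10x Genomics 3′ v2 libraries of freshly digested tumour enriched for viable cells. The stored 10x library is titled 24 h, and per the labels such samples were digested tumour kept overnight at 4 °C until viability had dropped. BD 1 and BD 2 are BD Rhapsody whole-transcriptome libraries. BD 1 is titled fresh. BD 2 is titled fresh as well, while its deposited matrix carries the name of the 24 h sample, so it is described without a storage state and enters no comparison of fresh with stored cells. The sources used here do not give the number, age or sex of the mice or whether libraries shared a tumour, so p-values measure only the spread between these libraries, which may be technical. The label description of both fresh 10x libraries names 1 matrix of 4000 cells, the number they hold together. Whether these 2 libraries, which supply the spread for the library comparisons, are separate tumours or animals is not given.

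The 5 libraries held 15958 cells in all, at most 4186 in 1 library, with 29166129 to 59957945 UMIs per library and a median of 8926 to 12474 UMIs per cell. Epithelial-like cells, the tumour compartment, made up 68.6% to 82.0% of cells in the 5 libraries. Mural-like cells were 3.28% and 3.17% of the fresh 10x libraries and 0.675%, 0.318% and 0.167% of the stored 10x, BD 1 and BD 2 libraries. BD 1 and BD 2 shared 24 cell barcodes, and no other pair shared more than 5. Cell classes were named from marker genes after clustering with the respiratory chain genes left out, so none of them defined a class. The T-like cluster was led by Igkc and Igha (immunoglobulin) as well as Cd3g and Trbc2, with Gzmb, Xcl1 and Nkg7 of cytotoxic cells among its top 10 genes, so it may hold more than T cells.

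The respiratory chain passes electrons from NADH and succinate to oxygen through complexes I to IV of the inner mitochondrial membrane, and complex V (ATP synthase) uses the resulting proton gradient to make ATP. All complexes except complex II are built from subunits of both genomes, with the mitochondrial genome supplying core subunits and the nuclear genome all others. Assembly of a complex therefore needs both sets, although they are transcribed in different compartments by different polymerases.

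Between the platforms, mitochondrial and nuclear members went opposite ways, while within each platform the libraries stood in the same order for both. The 13 mitochondrial mRNAs took 6.64% (fresh 10x 1), 7.77% (fresh 10x 2), 8.16% (stored 10x), 15.9% (BD 1) and 20.1% (BD 2) of all UMIs. Of the 91 nuclear members, 75 are structural subunits of the complexes, the others being assembly factors, tissue isoforms and Atp5s. Nuclear levels below are sums over these 75. They took 263 and 272 of every 10000 non-mitochondrial UMIs in the fresh 10x libraries, 294 in the stored 10x library, and 239 and 258 in the BD pair. Both BD libraries thus lay below all 3 10x libraries in nuclear level and above them in mitochondrial share. The number of nuclear UMIs per mitochondrial UMI was 0.370, 0.323 and 0.331 on 10x (fresh 1, fresh 2, stored) and 0.126 and 0.103 on BD. The stored 10x value lay between the 2 fresh values, and both BD values lay below all 10x values. The median mitochondrial share per cell was 6.14% to 7.17% on 10x and 15.2% and 19.8% on BD.

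Within a library, nuclear and mitochondrial levels followed each other across classes only in part. Both the mitochondrial share and the nuclear level were lower than in epithelial-like cells in all 22 combinations of another class and a library. Epithelial-like cells had 280, 285 and 307 nuclear-subunit UMIs per 10000 non-mitochondrial UMIs in the fresh 10x 1, fresh 10x 2 and stored 10x libraries, and 265 and 279 in BD 1 and BD 2. Fibroblast-like cells had 172, 178 and 187 on 10x and 127 and 139 on BD. Their mitochondrial share was 4.07%, 3.87% and 4.70% on 10x and 6.54% and 8.41% on BD, the lowest in each library among the classes with at least 20 cells there. Pearson's r across the classes of a library was taken between the log2 mitochondrial share and the log2 nuclear level. It was 0.71, 0.62 and 0.67 in the fresh 10x 1, fresh 10x 2 and stored 10x libraries (6 classes each). In BD 1 it was 0.95 (5 classes) and in BD 2 0.83 (4 classes). Spearman's rho was lowest in fresh 10x 2 (0.54) and highest in BD 1 (1). In fresh 10x 2, macrophage-like and endothelial-like cells had mitochondrial shares of 7.07% and 6.83% at nuclear levels of 211 and 191. T-like and mural-like cells there had lower shares, 5.92% and 6.31%, at higher nuclear levels, 248 and 266. These are descriptions over few classes that share a library. Across the libraries of a class, Pearson's r of the same log2 values was -0.55 in epithelial-like and -0.85 in macrophage-like cells. T-like and fibroblast-like cells had -0.82 and -0.83 (5 libraries in each of these classes). It was 0.04 in endothelial-like (4 libraries) and 0.67 in mural-like cells (3 libraries, 10x only). All but the mural-like r pool both platforms, so they cannot show a relation within a platform. Within each platform, epithelial-like libraries stood in the same order for both levels. From BD 1 to BD 2 both rose in T-like and fibroblast-like cells, while in macrophage-like cells the nuclear level fell. On 10x the orders were the same in endothelial-like, opposite in T-like and mixed in macrophage-like and fibroblast-like cells. In macrophage-like cells the mitochondrial share was 5.93% in fresh 10x 1 and 13.2% in BD 2, while the nuclear level was 183 and 130. In mural-like cells, compared on 10x only, the lowest of the 3 libraries in mitochondrial share (5.96%) was also lowest in nuclear level (238).

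**Figure D1:**
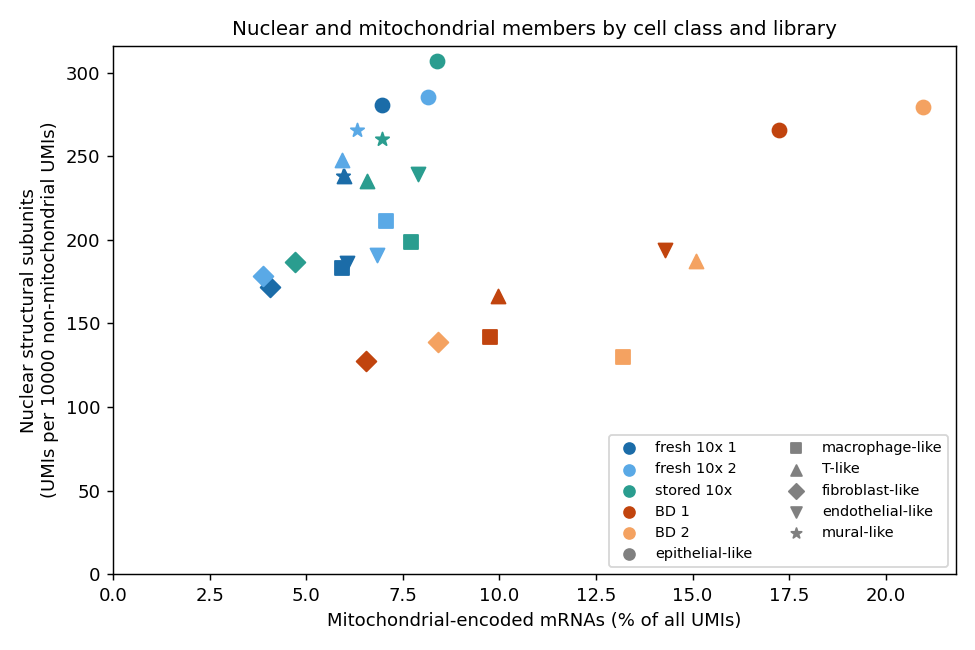
Mitochondrial-encoded mRNAs (x axis, percent of all UMIs) against the 75 nuclear-encoded structural subunits (y axis, UMIs per 10000 non-mitochondrial UMIs), 1 point per cell class and library with at least 20 cells; colour gives the library and shape the class. In each colour the epithelial-like point is highest on both axes, and the BD points lie to the right of the 10x points of the same class.

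The size of the drop differed between the genomes by class. In fibroblast-like cells the mitochondrial share was 0.380 to 0.584 times the epithelial-like value beside it, and the nuclear level 0.480 to 0.626. Their nuclear UMIs per mitochondrial UMI were higher than in epithelial-like cells in 5 of 5 libraries (0.405 against 0.374 in fresh 10x 1, 0.182 against 0.128 in BD 1). The ratio was also higher in T-like cells in 5 of 5 libraries, clearly so in fresh 10x 2 (0.394 against 0.3215) and BD 1 (0.150 against 0.128). It was nearly equal in fresh 10x 1 (0.3743 against 0.3741), stored 10x (0.3353 against 0.3349) and BD 2 (0.1056 against 0.1054). In mural-like cells it was higher in 3 of 3, by little in fresh 10x 1 (0.376 against 0.374). Endothelial-like cells went the other way, with fewer nuclear UMIs per mitochondrial UMI in 4 of 4 libraries (0.289 against 0.374 in fresh 10x 1, 0.116 against 0.128 in BD 1). Macrophage-like cells were lower in 4 of 5 libraries, the exception being BD 1 (0.131 against 0.128). These orders are descriptions, with no test.

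The 13 mitochondrial mRNAs encode 7 subunits of complex I (mt-Nd1 to mt-Nd6 and mt-Nd4l), cytochrome b of complex III (mt-Cytb), the 3 catalytic-core subunits of complex IV (mt-Co1 to mt-Co3) and 2 subunits of complex V (mt-Atp6 and mt-Atp8). They are cut from long transcripts of the circular genome, and neighbours overlap. The 2 longest overlaps between genes of the same strand are shown because a read inside them belongs to both genes, and how the authors' counting assigned it is not given in the sources used here. Capitals mark the shared bases, from GENCODE M21 transcripts (GRCm38, plus strand), at chrM:7912-7984 and chrM:10152-10188.
mt-Atp8 end and mt-Atp6 start: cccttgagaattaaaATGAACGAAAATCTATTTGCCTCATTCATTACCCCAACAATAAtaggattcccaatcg
mt-Nd4l end and mt-Nd4 start: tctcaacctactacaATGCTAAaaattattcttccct
The first overlap spans 43 of the 204 bases of mt-Atp8, and the second 7 of the 297 bases of mt-Nd4l. mt-Nd5 and mt-Nd6, on opposite strands, share 14 bases. mt-Atp6 and mt-Co3 share 1 base. Values of these genes carry that uncertainty.

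BD 1 was compared with the 2 fresh 10x libraries on whole-library sums with edgeR's quasi-likelihood test, in which the fresh 10x pair supplies the spread and each single library is assumed to vary like it. BD 1 had 11 of 13 mitochondrial mRNAs higher and none lower (edgeR, adjusted p under 0.05), where 20.1% of all 16973 genes tested were higher and 18.6% lower. The largest rise was that of mt-Nd3, whose level was 3.47, 4.56 and 12.4 per 10000 UMIs on 10x (fresh 1, fresh 2, stored) and 71.0 and 85.7 on BD. Both BD values lay above all 10x values, and the edgeR log2 difference of BD 1 from fresh 10x was 4.01 ± 0.20 (SE, adjusted p = 0.0014), or 16.1-fold. mt-Nd4l stood at 4.48, 2.68 and 7.25 on 10x and at 34.3 and 55.8 on BD, a difference of 3.12 ± 0.31 for BD 1 (adjusted p = 0.0035). mt-Atp8 stood at 1.09, 0.624 and 3.22 on 10x and at 7.78 and 17.1 on BD, a difference of 3.04 ± 0.33 for BD 1 (adjusted p = 0.0039). The 2 fresh 10x values of mt-Nd4l and mt-Atp8 differ from each other by more than those of the other mitochondrial mRNAs, in the plot of the 13 genes by library.

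The abundant mt-Co1 stood at 79.2, 99.0 and 114 per 10000 UMIs on 10x and at 365 and 450 on BD, and rose by 1.90 ± 0.20 in log2 in BD 1 (adjusted p = 0.0037). mt-Nd5 rose by 2.70, mt-Nd6 by 2.00, mt-Nd1 by 1.78, mt-Nd2 by 1.65, mt-Nd4 by 1.62, mt-Co2 by 1.06 and mt-Cytb by 1.03. The remaining 2 did not pass the test. mt-Atp6 stood at 170, 197, 177, 170 and 221 per 10000 UMIs in the order fresh 10x 1, fresh 10x 2, stored 10x, BD 1 and BD 2, a difference of -0.24 ± 0.18 (adjusted p = 0.35). mt-Co3 stood at 140, 161, 157, 116 and 126 in that order, with both BD values below all 10x values and a difference of -0.51 ± 0.18 (adjusted p = 0.081). The neighbours mt-Atp8, mt-Atp6, mt-Co3 and mt-Nd3, which follow each other on the genome, thus spanned the whole range from the lowest to the highest difference. Across the 13 genes, Spearman's rho between length (204 to 1824 bases) and the platform difference was -0.36, a description over genes of the same libraries.

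**Figure D2:**
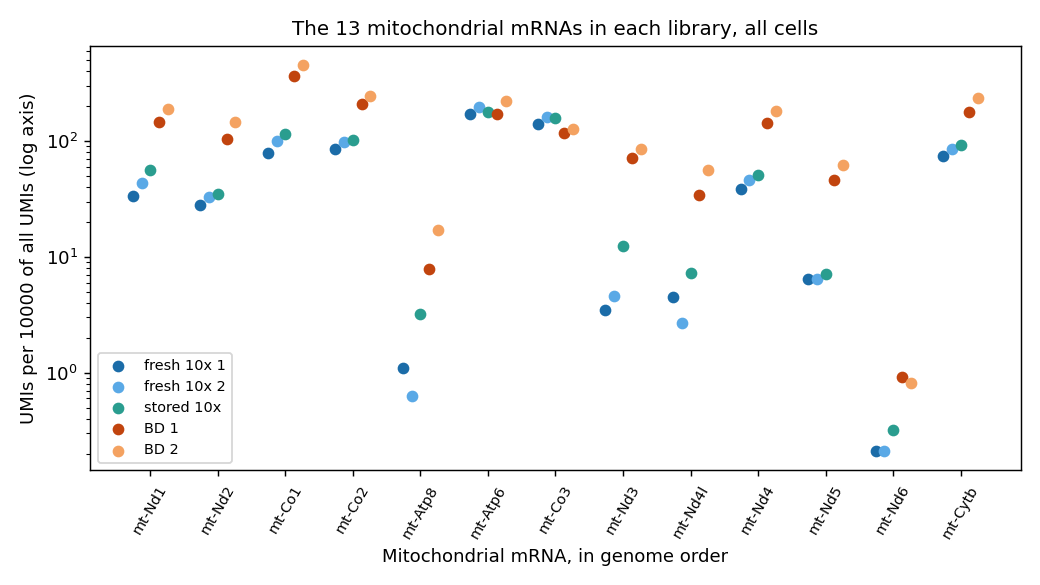
Level of each mitochondrial mRNA (y axis, UMIs per 10000 of all UMIs, log axis) in genome order (x axis), 1 point per library. Both BD points lie above all 10x points for 11 genes, not for mt-Atp6 and mt-Co3; for these 11 genes the stored 10x point lies between the fresh 10x and BD points.

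Nuclear members went mostly the opposite way in BD 1. Of 89 tested, 9 were higher and 49 lower than in fresh 10x (edgeR), 10.1% and 55.1% against 20.1% and 18.6% of all genes. The median log2 difference of the 74 structural subunits tested was -0.56, beside 0.03 over all genes. When libraries were scaled to their non-mitochondrial UMIs without TMM, the split became 18 higher and 39 lower, with medians of -0.28 for the subunits and 0.30 over all genes. Complex I carried the most decreases: 5 of 7 core subunits and 19 of 29 accessory subunits were lower, and 3 accessory subunits were higher. Complex III had 5 of 8 lower, complex IV 6 of 12 lower and 3 higher, and complex V 8 of 14 lower and 2 higher. Complex II, which has no mitochondrial-encoded subunit, had 1 of 4 lower. Its most abundant member Sdhd, a membrane anchor, stood at 1.42, 1.42, 1.09, 1.78 and 1.80 per 10000 non-mitochondrial UMIs, and BD 1 did not pass the test against fresh 10x (0.04 ± 0.10, adjusted p = 0.75).

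Single subunits moved far more than the median. Ndufa11, an accessory subunit of the membrane arm of complex I, stood at 2.10, 2.30 and 2.63 per 10000 non-mitochondrial UMIs in the 10x libraries and at 0.511 and 0.505 in BD 1 and BD 2, a log2 difference of -2.38 ± 0.12 for BD 1 (edgeR, adjusted p = 0.0014). The groups did not overlap. Ndufa13 fell by 2.04, the complex IV subunit Cox5b by 1.92, and Ndufb9 by 1.90 on the log2 scale. Atp5g3, 1 of 3 genes for the ring-forming c subunit of complex V, went up: it stood at 3.71, 3.90 and 3.17 on 10x and 12.2 and 12.6 on BD, a difference of 1.40 ± 0.11 (adjusted p = 0.0021). Ndufa3 rose by 1.16, Cox6a1 by 0.98 and Cox7c, the nuclear complex IV member with the most UMIs over the 5 libraries, by 0.96. Cox4i1, the complex IV subunit with the next most UMIs, stood at 13.9, 14.1 and 12.8 on 10x and 7.97 and 7.71 on BD. Cox7a1, the heart and muscle form of a complex IV subunit, rose by 1.02 from 0.0962 and 0.106 per 10000.

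The largest decreases in BD 1 were those of 2 isoforms that mark mural-like cells. Cox4i2 fell by 3.03 and Ndufa4l2 by 2.94 in log2 in the whole-library sums. The share of mural-like cells, given above, was lower in BD 1 as well, and its part in the result was not tested. In these summed counts alone, fewer cells of a type and less RNA per cell cannot be told apart. Within mural-like cells, Cox4i2 stood at 6.81 and 6.52 per 10000 non-mitochondrial UMIs in fresh 10x and at 6.87 in BD 1. Ndufa4l2 stood at 13.1 and 16.4 in fresh 10x and at 12.4 in BD 1, which held 12 mural-like cells.

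Within epithelial-like cells alone, BD 1 differed from fresh 10x in the same way. Here 11 of 13 mitochondrial mRNAs were higher and none lower, and 11 of 88 nuclear members were higher and 46 lower (edgeR), where 21.3% of 15623 genes were higher and 20.5% lower. mt-Nd3 rose by 4.06 ± 0.20 (adjusted p = 3.0e-05) and Ndufa11 fell by 2.29 ± 0.12 (adjusted p = 3.6e-05).

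Few members were called for storage by edgeR. For the unadjusted and DESeq2 counts below, the share over all genes is not given, so they cannot be set against it. Against fresh 10x, the stored 10x library had 2 of 89 nuclear members higher and 1 lower (edgeR), where 0.147% of genes were called in either direction. An unadjusted p under 0.05 was found for 38 of the 89, and DESeq2 called 17. The 3 edgeR calls were lost with non-mitochondrial library sizes (0 called) and without the count filter (0 called). None of the 13 mitochondrial mRNAs was called by edgeR, 5 had an unadjusted p under 0.05, and DESeq2 called 1. Atp5k, the e subunit of complex V, stood at 1.32, 1.31 and 4.17 per 10000 non-mitochondrial UMIs on 10x (fresh 1, fresh 2, stored) and at 2.87 and 3.42 on BD, a rise of 1.73 ± 0.10 in stored 10x (adjusted p = 0.039). Ndufa3 stood at 0.778 and 0.903 in fresh 10x, 2.58 in stored 10x, and 2.27 and 2.38 in BD, a rise of 1.68 ± 0.12 (adjusted p = 0.040). For both genes the stored 10x value lay above every other library. Over all genes 0.0354% were lower. Ndufa4l2 fell by 2.82 ± 0.21 (adjusted p = 0.044), beside the lower share of mural-like cells, whose part was not tested.

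**Figure D3:**
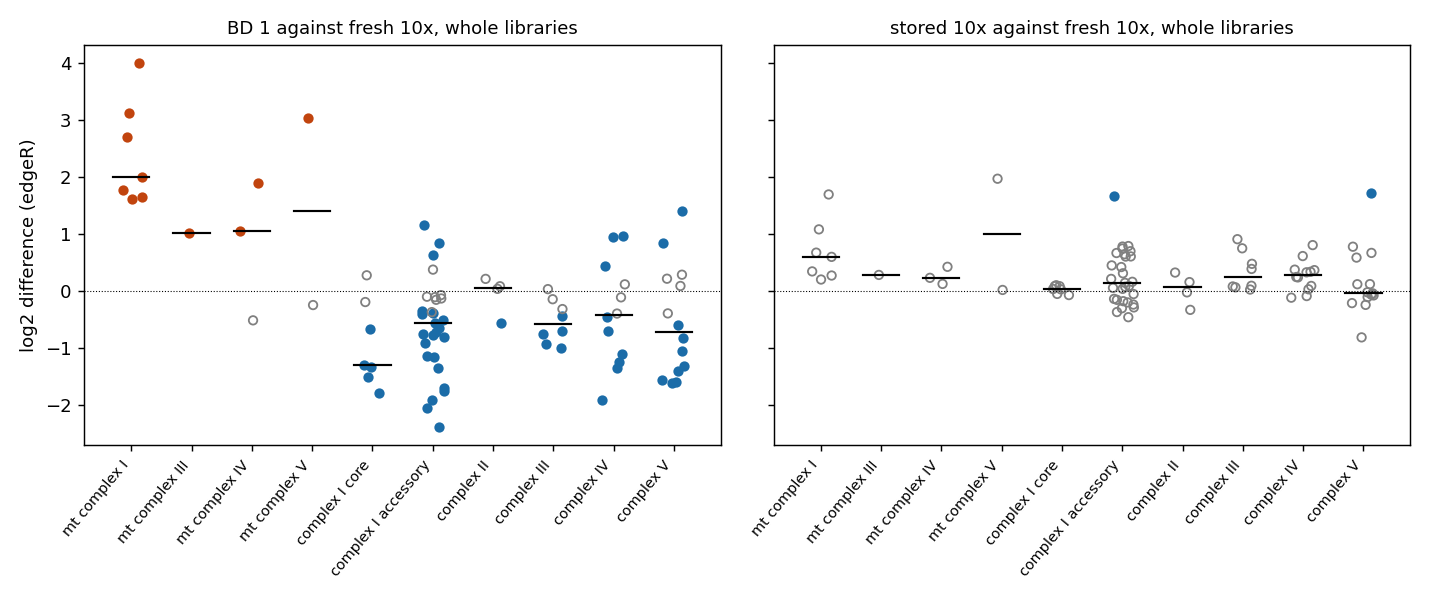
Log2 difference (y axis, edgeR) of each member in BD 1 (left) and in the stored 10x library (right) from the same 2 fresh 10x libraries, by complex and genome (x axis); filled points passed adjusted p under 0.05, open points did not, and bars are medians. Tissue isoforms, assembly factors and Atp5s are not drawn. Mitochondrial genes lie above 0 except mt-Atp6 and mt-Co3 in BD 1, and 2 nuclear points are filled on the right.

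In epithelial-like cells the stored 10x library had 10 of 88 nuclear members higher and 1 lower (edgeR), where 1.11% of genes were called, 0.903% higher and 0.211% lower. Besides Atp5k (1.67) and Ndufa3 (1.61), Cox7a1 rose by 1.40 ± 0.12 (adjusted p = 0.0084), from 0.114 and 0.121 per 10000 in fresh 10x to 0.309, with 0.302 and 0.334 in BD. Uqcr11 rose by 0.82 and Ndufa1 by 0.77, and Atp5h fell by 0.93. Of the mitochondrial mRNAs, mt-Atp8 rose by 1.85 ± 0.29 (adjusted p = 0.041), mt-Nd3 by 1.61 ± 0.20 (adjusted p = 0.020) and mt-Nd6 by 0.67 ± 0.11 (adjusted p = 0.046). Without a cluster of 1355 epithelial-like cells led by Gm26917 and Lars2, 4 nuclear members and 1 mitochondrial mRNA were called. Both comparisons share the fresh 10x libraries, so the BD 1 and stored 10x values above are not independent of each other.

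By cell class, sums per library and class were fitted with library as a term (edgeR), and the median over all genes shifted below 0 in each contrast with epithelial-like cells (-0.13 to -0.27 in log2). Fibroblast-like cells had all 13 mitochondrial mRNAs lower, and 72 of 87 nuclear members lower and 2 higher, where 39.9% of 11626 genes were lower and 31.8% higher. The median difference was -1.17 for the mitochondrial mRNAs and -0.70 for the structural nuclear subunits, beside -0.13 over all genes. Uqcrfs1, the Rieske iron-sulfur protein of complex III, stood between 0.708 and 0.928 per 10000 in fibroblast-like cells and between 2.63 and 3.02 in epithelial-like cells of the 5 libraries, without overlap, and fell by 1.69 ± 0.13 (adjusted p = 8.6e-12). Uqcr11, also of complex III, fell by 1.48. Complex IV had 11 of 12 lower, complex V 13 of 14, and complex II 4 of 4.

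Macrophage-like cells had 74 of 87 nuclear members lower and 3 higher, where 64.5% of genes were called, 37.9% lower and 26.6% higher, and 10 of 13 mitochondrial mRNAs lower. Their medians were -0.66 for the structural subunits and -0.46 for the mitochondrial mRNAs, beside -0.19 over all genes. Ndufa4, a small complex IV subunit once counted with complex I, fell by 1.33 ± 0.14 (adjusted p = 3.3e-09) and Ndufb9 by 1.32. Cox4i2 (2.24 ± 0.64, adjusted p = 0.0043), at 0 UMIs in both fresh 10x libraries and 2 to 5 UMIs in the others, and Cox6b2 were higher. Sdhb, the iron-sulfur subunit of complex II, was the 1 structural subunit that was higher, by 0.26 ± 0.11 (adjusted p = 0.043). mt-Co2, mt-Nd5 and mt-Nd6 did not pass the test. The mitochondrial count moved with the libraries kept: 5 were lower with the stored 10x library left out, 3 with BD 1 left out and 6 with BD 2 left out.

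T-like cells had 63 of 87 nuclear members lower and 2 higher, where 56.3% of genes were called, 35.5% lower and 20.8% higher, and 13 of 13 mitochondrial mRNAs lower, with medians of -0.54 and -0.62. Uqcr11 fell by 1.44 and Ndufc2 by 1.35. The 2 that were higher were Cox7a2l, which links complexes III and IV in supercomplexes (0.44 ± 0.13, adjusted p = 0.0041), and Ndufa1 (0.39 ± 0.13, adjusted p = 0.014). Endothelial-like cells had 72 of 87 nuclear members lower and 4 higher, where 57.6% of genes were called, 32.4% lower and 25.3% higher, and 10 of 13 mitochondrial mRNAs lower, with medians of -0.72 for the subunits and -0.45 for the mitochondrial mRNAs. In them Cox7a2l was higher by 0.42 ± 0.13 (adjusted p = 0.0086) and Ndufa8 by 0.60 ± 0.15 (adjusted p = 0.0015). Endothelial-like cells were compared in 4 libraries, since BD 2 held 13 of them, and 5 mitochondrial mRNAs were lower with fresh 10x 1 left out and 6 with the stored 10x library left out.

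**Figure D4:**
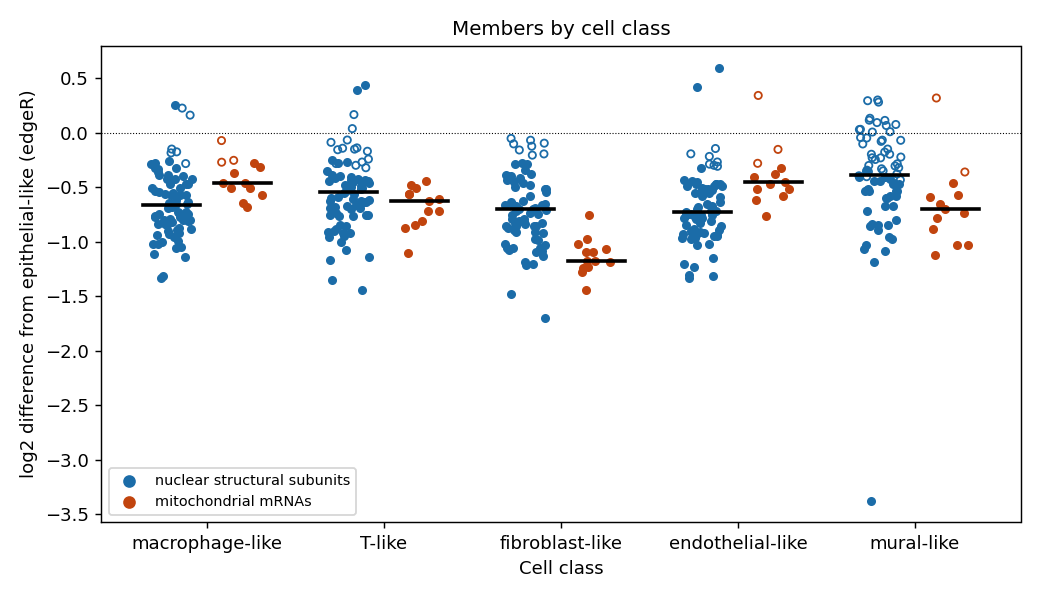
Log2 difference (y axis, edgeR with library as a term) of each structural nuclear subunit (blue) and mitochondrial mRNA (orange) between a cell class and epithelial-like cells (x axis); filled points passed adjusted p under 0.05, open points did not, and bars are medians. Medians lie below 0 in the 5 classes; the mitochondrial median is the lower one in fibroblast-like, mural-like and T-like cells. The single point near -3.4 in mural-like cells is Ndufa4.

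Mural-like cells, the contractile cells of vessel walls, could be compared in the 3 10x libraries only (68, 61 and 27 cells). They had 37 of 87 nuclear members lower and 3 higher, where 40.2% of genes were called, 22% lower and 18.1% higher, and 11 of 13 mitochondrial mRNAs lower. Scaled to non-mitochondrial UMIs without TMM, 18 nuclear members were lower and 6 higher. The 3 that were higher are tissue isoforms. Ndufa4l2, a relative of Ndufa4 known as a target of hypoxia-inducible factor, stood at 13.1, 16.4 and 10.8 per 10000 non-mitochondrial UMIs in mural-like cells, against 0.00449, 0.0115 and 0.00209 in epithelial-like cells of the fresh 10x 1, fresh 10x 2 and stored 10x libraries, a difference of 11.09 ± 0.35 (adjusted p = 8.1e-15). A UMI of it was found in 91.2%, 98.4% and 85.2% of mural-like cells and in 0.351%, 0.704% and 0.253% of epithelial-like cells, although the latter had the higher median depth (10230 to 12763 UMIs against 3802 to 5361). Its common relative Ndufa4 went the other way: it stood at 1.28, 1.28 and 0.863 per 10000 in mural-like cells and was 10.4-fold lower than in epithelial-like cells (-3.37 ± 0.20, adjusted p = 2.7e-13). Ndufa4 was the lowest structural subunit in mural-like cells, while Cox8a (0.10 ± 0.12, adjusted p = 0.60) did not pass the test.

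Cox4i2, the lung and oxygen-responsive form of the complex IV subunit 4, stood at 6.81, 6.52 and 7.10 per 10000 in mural-like cells and at 0.00135, 0.00425 and 0.00487 in epithelial-like cells (10.69 ± 0.32, adjusted p = 1.4e-17). Its common form Cox4i1 stood at 14.1, 14.6 and 13.1 per 10000 in the same mural-like cells (-0.32 ± 0.13, adjusted p = 0.052). The few BD mural-like cells, too few for the comparison, showed the same isoforms: 8 of 12 in BD 1 and 5 of 7 in BD 2 had a UMI of Cox4i2, and 11 of 12 and 7 of 7 had one of Ndufa4l2. Ndufa4 had 3 UMIs in the 12 cells of BD 1 and none in the 7 of BD 2.

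UMIs of these isoforms were also counted in other classes, at lower levels. Ndufa4l2 was also higher in fibroblast-like cells (0.0766 to 0.485 per 10000 in the 5 libraries; 5.74 ± 0.31, adjusted p = 6.7e-12), and a UMI was found in 20.9% and 20.0% of them in fresh 10x, 5.99% in stored 10x, and 10.1% and 7.83% in BD. In endothelial-like cells Cox4i2 was higher by 4.86 ± 0.47 and Ndufa4l2 by 5.04 ± 0.45, at 0.0679 to 0.200 and 0.0679 to 0.334 per 10000, with a UMI in 2.22% to 3.85% and 4.12% to 8.89% of cells. For Cox4i2 these were 6, 4, 2 and 1 cells in the fresh 10x 1, fresh 10x 2, stored 10x and BD 1 libraries, with 9, 18, 4 and 7 UMIs. The part of mural RNA or of doublets with mural-like cells, whose levels are given above, was not tested. Ndufa4l2 had no UMI in macrophage-like or T-like cells of any library, where a count of 0 allows a share of cells with a UMI of up to 1.31% (BD 1 macrophage-like, 229 cells) to 7.14% (fresh 10x 2 T-like, 42 cells), for counting error only. Cox6b2, known as the testis form of a complex IV subunit, was higher in macrophage-like (2.70 ± 0.26, adjusted p = 1.8e-09), fibroblast-like (2.10 ± 0.23, adjusted p = 1.0e-08) and mural-like cells (2.70 ± 0.52, adjusted p = 1.4e-04), at levels of at most 0.323 per 10000. Cox7a1 stood at 0.114 to 0.334 per 10000 in epithelial-like cells and was lower in the 5 other classes. Cox8b had UMIs in 4.28% to 7.68% of epithelial-like cells, and Cox8c in at most 0.0948%.

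Whether class differences depended on the platform was tested as an interaction, BD minus 10x. Shares over all genes in this paragraph are those of edgeR's adjusted p, and none is given for the unadjusted and DESeq2 counts. In macrophage-like cells, where 0.43% of all genes were called by this test, 0.344% lower and 0.086% higher, 5 of 13 mitochondrial mRNAs and 1 of 87 nuclear members were called (edgeR), each with a more negative difference on BD. An unadjusted p under 0.05 was found for 13 mitochondrial mRNAs and 43 nuclear members, and DESeq2 called 10 and 32. The mitochondrial ones were mt-Co3 (-0.86 ± 0.13, adjusted p = 0.0081), mt-Nd3 (-0.98 ± 0.16), mt-Co2 (-0.81 ± 0.14), mt-Atp6 (-0.71 ± 0.13) and mt-Co1 (-0.65 ± 0.13), and the nuclear one Atp5e (-0.77 ± 0.17, adjusted p = 0.045). In fibroblast-like cells mt-Nd4 was called (-0.71 ± 0.13, adjusted p = 0.028), where 0.0946% of genes were lower and 0.0688% higher, and no nuclear member was (18 with an unadjusted p under 0.05; DESeq2 also called none). In T-like cells edgeR called no member, with 0.0344% of genes called, while 23 nuclear members had an unadjusted p under 0.05 and DESeq2 called 10 nuclear members and 4 mitochondrial mRNAs. In endothelial-like cells edgeR called none, with 0.0086% of genes called, 5 nuclear members had an unadjusted p under 0.05 and DESeq2 called 2. These interaction calls rest on few libraries: with BD 1, BD 2 or fresh 10x 1 left out, none of the mitochondrial mRNAs was called in macrophage-like cells, with fresh 10x 2 left out 1 was, and with cells above 20% mitochondrial UMIs left out none was. The Atp5e call and that in fibroblast-like cells were lost with any 1 of the 5 libraries left out.

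Among epithelial-like cells of a library, nuclear members followed the mitochondrial share only part of the way. Cells were ranked by mitochondrial share and cut into quintiles. In BD 2 the nuclear level was 270, 286, 295, 290 and 214 per 10000 non-mitochondrial UMIs from the lowest to the highest quintile, and in BD 1 259, 264, 271, 284 and 241. In the stored 10x library it was 292, 314, 319, 309 and 255. In fresh 10x 1 it was 255, 272, 288, 296 and 284, and in fresh 10x 2 275, 283, 294, 290 and 283. In both fresh 10x libraries the highest quintile thus lay above the lowest, while in the other libraries it lay below. The quintiles compare libraries at unlike mitochondrial shares. In the highest quintile the median share per cell was 10.5% and 16.2% in fresh 10x 1 and fresh 10x 2. It was 28.4%, 42.2% and 53.4% in stored 10x, BD 1 and BD 2. The highest quintile also had the lowest depth, with a median of 3026 UMIs against 14586 in the middle quintile of stored 10x, 6129 against 14210 for BD 1 and 4490 against 10532.5 for BD 2, and the part of depth in the result was not tested. Against the middle quintile, the ribosomal protein share of non-mitochondrial UMIs was 18.5% against 24.6% in stored 10x. It was 15.3% against 16.4% in BD 1 and 13.4% against 18.1% in BD 2. In BD 1 the lowest quintile stood lower still, at 14.3%. In fresh 10x 1 and fresh 10x 2 the share was 22.6% against 22.5% and 21.1% against 22.5%.

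In fibroblast-like cells on BD the nuclear level was higher at a higher mitochondrial share, from 115 in the lowest to 172 in the highest quintile of BD 1 and from 120 to 187 in BD 2, while in fresh 10x it went from 164 to 173 and from 169 to 181, and in stored 10x from 174 to 197. The summed level of epithelial markers in the same fibroblast-like cells went from 4.47 to 58.7 per 10000 in BD 1, from 2.59 to 82.9 in BD 2 and from 10.1 to 90.8 in stored 10x, and from 3.18 to 6.92 and 3.64 to 6.68 in fresh 10x. The part of epithelial RNA or doublets in this was not tested.

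**Figure D5:**
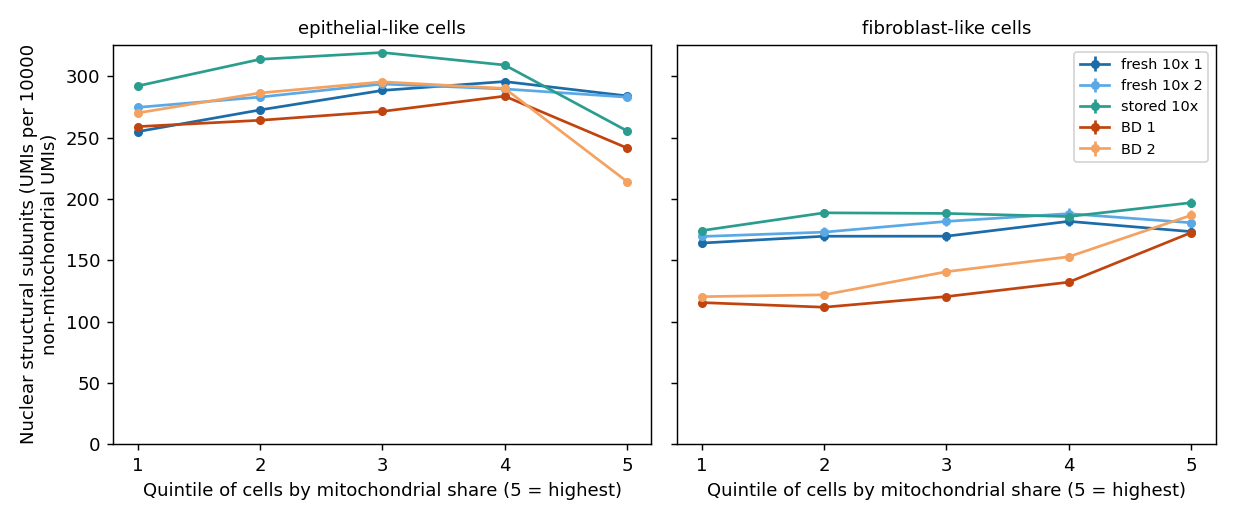
Nuclear structural subunits (y axis, UMIs per 10000 non-mitochondrial UMIs, with exact 95% counting intervals, mostly smaller than the points) by quintile of cells ranked on mitochondrial share within each library (x axis). In epithelial-like cells (left) the highest quintile is at 255, 241 and 214 in the stored 10x, BD 1 and BD 2 libraries; in fibroblast-like cells (right) the BD lines rise.

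The cluster led by Gm26917 and Lars2 lies at the end of this range. This cluster held 49 and 77 cells in fresh 10x 1 and fresh 10x 2, and 398, 338 and 493 in stored 10x, BD 1 and BD 2. Its mitochondrial share was 25.2%, 22.7% and 28.5% in the 10x libraries and 48.5% and 54.1% in BD, and its nuclear level 192, 209, 219, 191 and 171, below that of all epithelial-like cells in every library. Without it, the epithelial-like mitochondrial share was 6.87%, 7.95%, 7.80%, 15.9% and 19.0% and the nuclear level 281, 286, 309, 267 and 283.

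Genes outside the rule that serve the chain were compared in the same fits. In BD 1 against fresh 10x whole libraries, 20.1% of all genes were higher and 18.6% lower. Of 31 electron carriers and other assembly factors, 5 were higher and 16 lower in BD 1 than in fresh 10x whole libraries. Cycs, cytochrome c, fell by 1.47 ± 0.12 (edgeR, adjusted p = 0.0023), and Cox15, an enzyme of heme a synthesis, rose by 1.81. Of 16 genes of mitochondrial genome expression, 3 were higher and 3 lower: Lrpprc, which stabilises mitochondrial mRNAs, rose by 1.35 ± 0.13 (adjusted p = 0.0032), and Mrpl12, a mitoribosomal protein that binds the mitochondrial polymerase, fell by 2.32. Tfam, which packages the mitochondrial genome, did not pass the test (0.32 ± 0.10, adjusted p = 0.065), and in epithelial-like cells it rose by 0.38 ± 0.11 (adjusted p = 0.031). Of 8 regulators 3 were higher and none lower, and Ppargc1a was among those not called (adjusted p = 0.50). Of 13 TCA cycle genes 3 were higher and 5 lower. In fibroblast-like against epithelial-like cells, where 39.9% of all genes were lower and 31.8% higher, 12 of 15 genes of mitochondrial genome expression were lower and 1 higher, with Tfam at -0.76 ± 0.11 and Lrpprc at -0.60 ± 0.14, and 10 of 13 TCA cycle genes were lower and none higher. In macrophage-like cells, where 37.9% were lower and 26.6% higher, 10 of 13 TCA cycle genes were lower and 1 higher.

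Promoter letters of nuclear members were searched for 4 patterns that the rule did not use. Of 73 nuclear members with a RefSeq promoter (GRCm38.p6, 250 bases before to 50 after the start), 20 (27.4%) held GCGC, any 2 bases and again GCGC, the palindromic core bound by nuclear respiratory factor 1, beside 1891 of 27025 genes with an entry. CCGGAAG, an ETS core, was in 18 (24.7%) beside 9.93%, and AAGATGGC, a YY1 core, in 10 (13.7%) beside 3.19%. ACGTG, the core of a hypoxia response element, was in 17 (23.3%) beside 21.8%. Both strands were searched. These are descriptions of letters, and promoters of many genes rich in CG share them. Stretches of 100 bases before the start are shown for 2 members described above that hold the first pattern there, with the match in capitals, on the gene's strand: Ndufa11 at chr17:56717662-56717761 (plus strand), lower on BD, and Atp5k at chr5:108434400-108434499 (minus strand), higher in stored 10x.
Ndufa11: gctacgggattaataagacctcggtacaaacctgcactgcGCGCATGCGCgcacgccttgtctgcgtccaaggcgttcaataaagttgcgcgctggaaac
Atp5k: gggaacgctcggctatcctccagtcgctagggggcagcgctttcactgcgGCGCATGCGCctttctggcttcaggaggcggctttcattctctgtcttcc

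Gene names differed between the platforms' annotations. Atp5mpl (28756 UMIs) and Atp5o (41576 UMIs) were listed with UMIs on BD only and are not members, and their 10x counterparts by RefSeq synonym, 2010107E04Rik (29288 UMIs) and Atp5o.1 (45061 UMIs), had UMIs on 10x only. With the names joined, nuclear UMIs per mitochondrial UMI in BD 1 were 0.367 times the fresh 10x mean, beside 0.364 without.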

How the data were processed

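Single-cell libraries of PyMT mouse mammary tumours were analysed from the authors' deposited matrices of raw UMI counts per gene and cell; Cell Ranger 3.0.1 and mm10 are named, without roles, in the submitters' processing notes. The BD counting tool is not given in the sources used here. The members and lists were chosen with earlier results of these data known. All 15958 cells entered library totals. Cells were clustered with scanpy 1.11.5 (2000 variable genes without the members, 30 components, Leiden resolution 1) after leaving out cells with under 200 genes, and named from fixed markers. The naming rule was revised after cluster tables, including mitochondrial percents, had been seen and before any test. A doublet caller marked 21 of 2033 cells in fresh 10x 1, which were left out; it marked under 0.5% in each other library, so doublets were not removed there. Depth was 29166129 to 59957945 UMIs per library; intervals (exact, 95%) and floors (3 counts) cover counting error only.

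Summed counts were tested with edgeR 4.0.16 (quasi-likelihood, TMM, filterByExpr, Benjamini-Hochberg over all genes tested, threshold 0.05). Library contrasts take their spread from the 2 fresh 10x libraries. Class sums of at least 20 cells per library were fitted with library as a term. Counts were simulated with an equal spread for every gene and library, and with changes only in the genes counted next. On them the platform fit recovered 70 of 100 2-fold and 96 of 100 4-fold changes, with 13 false among 179 calls. That setting assumes that single libraries vary like the fresh 10x pair, so it cannot test this. Named were all mitochondrial mRNAs, up to 5 called nuclear members per direction and comparison, tissue isoforms with their common forms, the most abundant member of a complex, members listed on 1 platform, and Cycs, Tfam, Lrpprc, Ppargc1a and up to 2 called genes per direction of each outside list; other genes named were chosen after their values were seen. Motifs were chosen with results known, and the 2 promoter stretches because they hold a match. Alternatives were DESeq2 1.42.0, non-mitochondrial library size without TMM, no count filter, a cell filter (at least 500 UMIs, at most 20% mitochondrial), other class definitions, other groupings of BD 2, leaving out each library and, chosen after seeing the data, leaving out the Gm26917 and Lars2 cluster.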

Additional observations from a re-analysis of the deposited data

Results flagged for a closer look

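For 7 members edgeR called a difference between the platforms in the contrast of a cell class with epithelial-like cells (interaction, BD minus 10x, log2). Over all genes 0.43% were called in macrophage-like and 0.163% in fibroblast-like cells. With a library left out, 0 to 4 mitochondrial mRNAs and 0 nuclear members were called in macrophage-like cells. In fibroblast-like cells 0 members were then called. In macrophage-like cells the values were -0.77 for Atp5e, -0.71 for mt-Atp6, -0.65 for mt-Co1, -0.81 for mt-Co2, -0.86 for mt-Co3 and -0.98 for mt-Nd3, so each stood lower against epithelial-like cells on BD than on 10x. In fibroblast-like cells the value was -0.71 for mt-Nd4. The 2 BD libraries and 3 10x libraries also differ in storage, which cannot be told apart from the platform for BD 2, whose labels conflict.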

How the results depend on the processing

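No result changed direction among called values. Counts below are members past adjusted p 0.05 in either direction unless stated. They are given without the share of all genes called in each setting, so they show only how the member counts moved. In whole-library storage, 3 nuclear members became 17 with DESeq2, 0 with non-mitochondrial library sizes and 0 without the count filter, and 0 mitochondrial mRNAs became 1 with DESeq2. In epithelial-like storage, 11 nuclear members became 22 without the count filter, 3 at Leiden resolution 2 and 4 without the Gm26917 and Lars2 cluster, and 3 mitochondrial mRNAs became 1 with DESeq2, the cell filter, resolution 2 or without that cluster. Against epithelial-like cells, the 10 mitochondrial mRNAs of macrophage-like cells became 5 with DESeq2 or the cell filter and 3 to 11 with a library left out. Those of endothelial-like cells became 6 with non-mitochondrial library sizes or the cell filter (5 lower, 1 higher) and 5 to 10 with a library left out. The 40 nuclear members of mural-like cells became 24 with non-mitochondrial library sizes. For the platform interaction in macrophage-like cells, 1 nuclear member became 32 with DESeq2, 4 with the marker gate and 0 with non-mitochondrial library sizes, no count filter, the cell filter, resolution 2 or any library left out; 5 mitochondrial mRNAs became 10 with DESeq2, 0 with the cell filter and 0 to 4 with a library left out. In T-like cells DESeq2 called 10 nuclear members and 4 mitochondrial mRNAs, and no count filter gave 1 mitochondrial mRNA. In fibroblast-like cells 1 mitochondrial mRNA became 3 with DESeq2, 5 without the count filter and 0 with non-mitochondrial sizes, the cell filter, the marker gate, resolution 2, without that cluster or with any library left out. In endothelial-like cells DESeq2 called 2 nuclear members. The BD 1 to fresh 10x ratio of nuclear level, 0.893, was 0.809 over all UMIs. The stored to fresh ratio, 1.10, was 1.05 by the median over cells. With the cell filter, the BD 1 to fresh ratio of mitochondrial share went from 2.21 to 1.71 and of nuclear per mitochondrial UMI from 0.364 to 0.481, and the stored to fresh value of the latter from 0.954 to 1.06, across 1. The cause was not tested for any of these. With both BD libraries grouped by title, 62 nuclear and 11 mitochondrial members were called without and 63 and 12 with the replicate number as a block in whole libraries, and 62 and 11 in both fits of epithelial-like cells; samples share only a number (r 0.26 over 11805 genes between number 1 minus 2 on each platform, from 2 pairs).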

Other observations

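Across the epithelial-like clusters of a library, Pearson's r was taken between the log2 nuclear level and the log2 mitochondrial share. It was -0.60, -0.42, -0.51, -0.49 and -0.57 in the fresh 10x 1, fresh 10x 2, stored 10x, BD 1 and BD 2 libraries. There were 11 clusters in fresh 10x 1 and 12 in each other library. Without the Gm26917 and Lars2 cluster r was 0.25, 0.43, 0.45, 0.10 and 0.22, so the negative values rest on that cluster. These are descriptions over clusters that share a library.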
